A study of Arabidopsis thaliana with 8 samples.

Results

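Coumarins are small phenolic compounds that Arabidopsis thaliana roots make from phenylpropanoid precursors and release into the soil, where catechol-type coumarins bind and reduce ferric iron. The pathway is best known for its induction when iron is scarce, when the regulators FIT, MYB72 and MYB10 drive its enzymes and its exporter in the root. Feruloyl-CoA is hydroxylated by F6'H1, the ring is closed with the help of COSY to give scopoletin, and S8H and CYP82C4 convert scopoletin to fraxetin and then to sideretin. Glucosides are cleaved by BGLU42, and the ABC transporter PDR9 carries coumarins out of the root. These 8 genes, F6'H1 (AT3G13610), S8H (AT3G12900), CYP82C4 (AT4G31940), COSY (AT1G28680), BGLU42 (AT5G36890), PDR9 (AT3G53480), MYB72 (AT1G56160) and MYB10 (AT3G12820), are described here out of the 27628 genes measured. They were chosen by name, through the locus code of their transcripts, and they hold 11 of the 48332 transcripts listed. The list was drawn up with results of the same libraries known, so the calls below come from a model over all genes and a count of called coumarin genes is no independent support for their direction.

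The libraries were poly(A) RNA-seq of roots of hy5 mutant and wild-type (WT) seedlings, with 2 libraries in each of 4 groups: hy5 BA, hy5 Control, WT BA and WT Control. HY5 is a bZIP transcription factor that promotes light-regulated development and also acts in roots. Plants of all 4 groups grew for 1 week on 0.5x MS plates, and their roots were cut from the shoots and submerged in liquid medium of the same strength, with 0.1 uM of the cytokinin benzyladenine (BA) in the BA groups and without it in the Control groups. The labels state neither the hy5 allele nor the length of the treatment, nor how many plants went into a library, and nothing says that replicate libraries came from separate cultures, so p-values measure the spread between these libraries, which may be technical.

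Totals lay between 29928501 and 35289411 estimated counts per library. HY5 had 1.97 and 0.989 CPM (counts scaled to library size) in hy5 BA and 0.826 and 0.931 CPM in hy5 Control, against 31.02 and 31.4 CPM in WT BA and 32.4 and 31.1 CPM in WT Control. ARR5, a gene that cytokinin induces, had 143.2 and 131.3 CPM in hy5 BA against hy5 Control values of 18.2 and 21.1 CPM, and 164.3 and 160.2 CPM in WT BA against WT Control values of 17.5 and 16.1 CPM. The labelled tissue was checked against markers. All 23 markers in 7 lists of root cell types had at least 10 counts in all 8 libraries. The 7 shoot markers summed to 0.789 and 0.958 CPM in hy5 BA, against 0.38 to 0.497 CPM in the other libraries. At least 10 counts were reached by 1 shoot marker in each hy5 BA library and by 0 in each other library. In each comparison the call was an adjusted p under 0.05 in edgeR's quasi-likelihood test over 22682 genes, and 7 of the 8 coumarin genes passed the filter on low counts; S8H did not.

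For the 3 coumarin genes with a call in any comparison, and for S8H as the gene almost without counts, the 300 bases from 250 before to 50 after the annotated gene start are shown, since the hy5 mutant lacks a factor that binds sequences with an ACGT core. The sequences were read from the TAIR10.1 genome, each on the strand of the gene. F6'H1 is shown for chr3:4449009-4449308, COSY for chr1:10077939-10078238, PDR9 for chr3:19825017-19825316 and S8H for chr3:4104213-4104512, all on the plus strand. Capitals mark ACGT and CANNTG, the E-box form that bHLH factors such as FIT bind.
F6'H1: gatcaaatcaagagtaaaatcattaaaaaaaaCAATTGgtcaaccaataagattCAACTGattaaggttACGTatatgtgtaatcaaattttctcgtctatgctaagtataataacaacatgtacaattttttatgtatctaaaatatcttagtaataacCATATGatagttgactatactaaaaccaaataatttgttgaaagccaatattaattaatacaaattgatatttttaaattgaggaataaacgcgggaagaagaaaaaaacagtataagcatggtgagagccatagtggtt
COSY: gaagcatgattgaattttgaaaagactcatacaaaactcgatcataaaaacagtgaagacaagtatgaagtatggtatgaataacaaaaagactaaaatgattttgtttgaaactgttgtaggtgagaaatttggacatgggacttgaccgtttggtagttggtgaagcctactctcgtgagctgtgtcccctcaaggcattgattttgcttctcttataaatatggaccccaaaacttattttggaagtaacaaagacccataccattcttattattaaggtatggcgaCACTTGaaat
PDR9: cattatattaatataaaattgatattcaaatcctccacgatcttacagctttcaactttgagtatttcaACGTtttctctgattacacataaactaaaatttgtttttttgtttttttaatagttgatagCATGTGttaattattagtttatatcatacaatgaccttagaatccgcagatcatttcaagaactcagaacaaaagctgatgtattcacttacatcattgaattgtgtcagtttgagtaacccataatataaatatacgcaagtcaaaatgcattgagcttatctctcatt
S8H: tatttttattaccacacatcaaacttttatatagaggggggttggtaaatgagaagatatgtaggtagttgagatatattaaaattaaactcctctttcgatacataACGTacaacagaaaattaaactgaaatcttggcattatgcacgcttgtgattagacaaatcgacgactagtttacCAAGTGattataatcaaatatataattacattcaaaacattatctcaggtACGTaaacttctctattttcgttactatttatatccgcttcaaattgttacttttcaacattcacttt
Neither strand of any of the 8 promoters held the G-box CACGTG, which contains both shorter motifs and was found in 7.68% of 27443 promoters of the same length. ACGT was found in 5 of the 8, against 49.9% of all promoters, and CANNTG in 5 of the 8, against 61.7%. Of the AC elements known as sites of R2R3 MYB factors, ACCTACC was found in CYP82C4 alone among the 8 and in 1.38% of all promoters, and ACCAACC was found in S8H alone and in 3.29% of all promoters. These are matches of letters in 1 window and say nothing about binding.

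Per length and library size, the 8 genes spanned a wide range of transcript levels. COSY was the most abundant, with mean TPM (deposited values scaled for length and library size) of 117.6 ± 0.762 in hy5 BA, 137.1 ± 5.22 in hy5 Control, 98.4 ± 2.13 in WT BA and 100.2 ± 0.647 in WT Control (SD, n = 2 each, here and below). F6'H1 was next, with 55.1 ± 5.79 TPM in hy5 BA, 66.1 ± 2.29 TPM in hy5 Control, 55.3 ± 5.62 TPM in WT BA and 41.5 ± 1.03 TPM in WT Control. PDR9 followed at group means of 30.6 to 36.4 TPM and BGLU42 at 13.9 to 15.4 TPM. MYB10 lay at 3.22 to 4.62 TPM, well below the enzymes that make and release scopoletin. CYP82C4, at 1.07 to 1.60 TPM, and MYB72, at 0.811 to 1.42 TPM, were neighbours in this order whose libraries overlapped. S8H was last, at 0 to 0.0876 TPM. In all 4 groups the genes leading to scopoletin and its export were thus far above S8H, which was near or at 0.

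**Figure D1:**
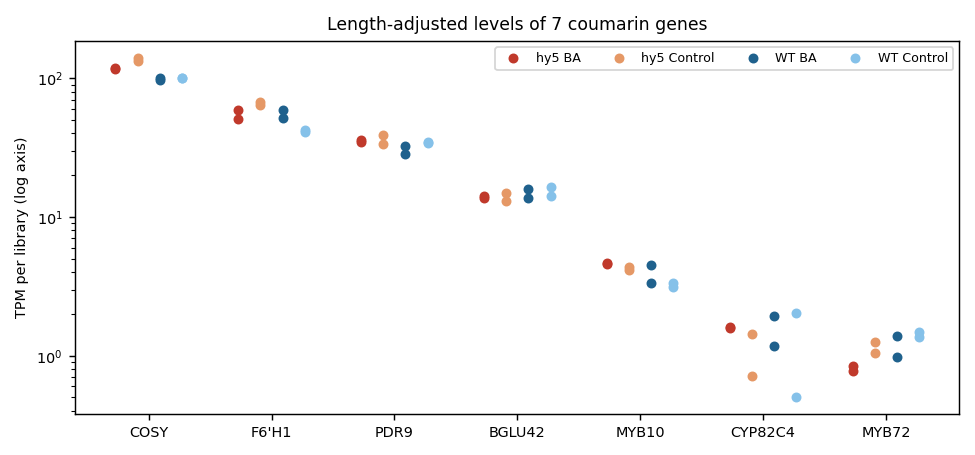
TPM of 7 coumarin genes on a log axis; points are libraries, coloured by group in the order hy5 BA, hy5 Control, WT BA, WT Control. COSY was the highest of these genes in every library, and S8H, with libraries at 0, is not drawn.

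The gene that differed most was F6'H1, the dioxygenase at the entry to the pathway. In medium without BA, F6'H1 had 82.8 and 79.7 CPM in hy5 Control, against 50.9 and 47.5 CPM in WT Control. Both hy5 libraries lay above both WT libraries, and the hy5 over WT difference was 0.72 ± 0.10 (log2 fold ± SE), a 1.65-fold higher level (edgeR, adjusted p = 5.4e-05). The call held without any one of the 8 libraries, with differences of 0.68 to 0.77 and adjusted p-values up to 0.00195. In medium with BA, F6'H1 had 73.2 and 63.5 CPM in hy5 BA, against 60.7 and 74.9 CPM in WT BA. These libraries overlapped, and the difference was 0.01 ± 0.10, with a 95% interval from -0.19 to 0.22 and an adjusted p of 0.944. In bulk roots, fewer cells of a type and less RNA per cell cannot be told apart.

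The BA responses of F6'H1 had opposite signs in the 2 genotypes. In WT, where WT BA had 60.7 and 74.9 CPM and WT Control 50.9 and 47.5 CPM, the BA over Control difference was 0.46 ± 0.10 (1.38-fold, adjusted p = 0.00835). In hy5, where hy5 BA had 73.2 and 63.5 CPM and hy5 Control 82.8 and 79.7 CPM, it was -0.25 ± 0.09 and did not pass the test (adjusted p = 0.119), although it did without WT BA 1 (0.0453) or WT BA 2 (0.0497) and in a fit of the 2 hy5 groups alone (0.0172). The difference between the responses, hy5 minus WT, was -0.71 ± 0.13 (95% interval -1 to -0.42, adjusted p = 0.0419). The WT response lost its call when WT Control 2 was left out (adjusted p = 0.0582), and likewise for WT BA 2 (0.111). The difference between responses was no longer called without WT Control 2 (0.105), WT BA 2 (0.0999), hy5 Control 1 (0.184), hy5 Control 2 (0.124) or hy5 BA 2 (0.25), and it lay between -0.86 and -0.55 over the 8 runs that each left out 1 library. An edgeR fit of transcripts, of which F6'H1 has 1 listed, gave 0.46 for BA in WT (adjusted p = 0.254). That fit gave -0.715 for the difference between responses (adjusted p = 0.492). F6'H1 overlaps AT3G13620 by 67 bases on the opposite strand, and no source used here says whether the libraries keep strand. AT3G13620 had 14.4 and 14.7 CPM in hy5 BA and 9.54 and 10.2 CPM in hy5 Control, against 13.6 and 11.4 CPM in WT BA and 7.79 and 6.84 CPM in WT Control, and its part in the F6'H1 result was not tested.

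**Figure D2:**
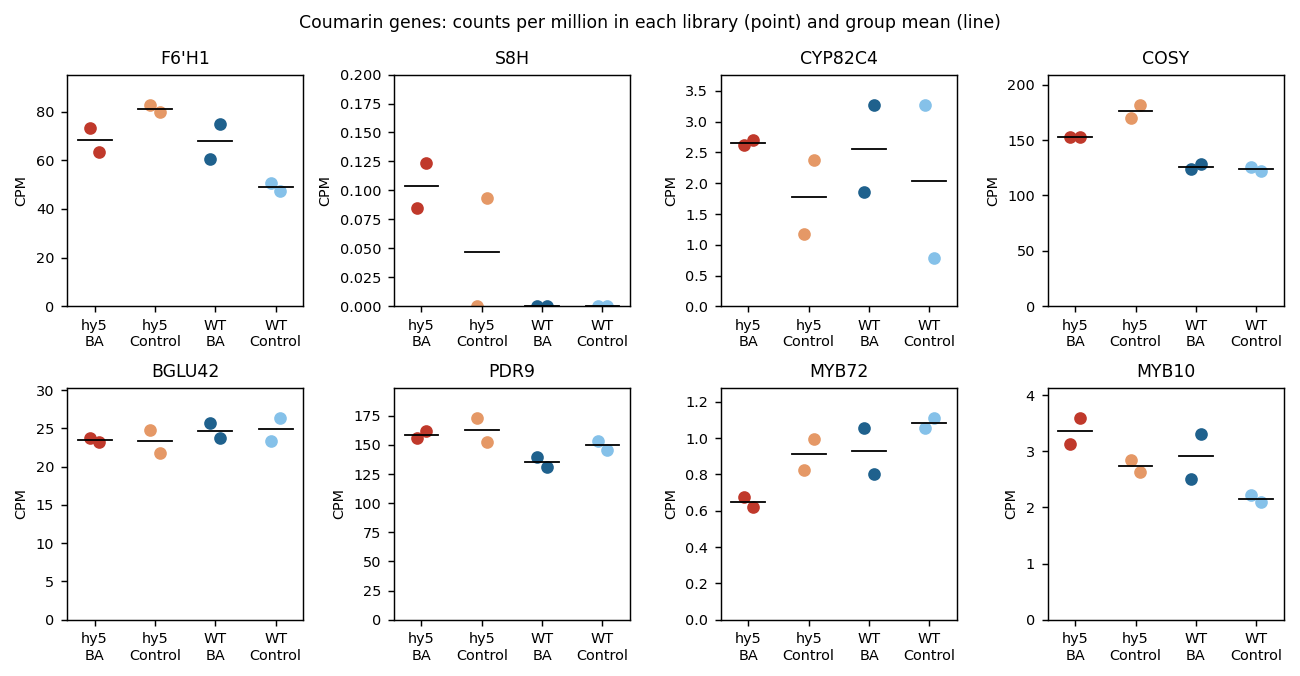
CPM of each of the 8 coumarin genes in the 8 libraries, 1 panel a gene with its own linear axis; points are libraries and short lines group means, in the order hy5 BA, hy5 Control, WT BA, WT Control. F6'H1 was lowest in the WT Control libraries, at 50.9 and 47.5 CPM, and COSY was higher in every hy5 library than in every WT library.

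COSY, the acyltransferase family enzyme that closes the coumarin ring, was also higher in hy5 without BA. It had 170.0 and 181.8 CPM in hy5 Control against 125.6 and 122.1 CPM in WT Control, a difference of 0.51 ± 0.07 (1.42-fold, adjusted p = 3.06e-05) that was called in all 8 runs without 1 library. With BA it had 152.3 and 152.3 CPM in hy5 BA against 123.9 and 128.1 CPM in WT BA, a difference of 0.27 ± 0.07 (1.21-fold, adjusted p = 0.00728). The call with BA was lost without WT BA 1 (adjusted p = 0.0642) and without hy5 BA 1 (0.0546). An edgeR fit of transcripts did not call the difference with BA either, at 0.249 (adjusted p = 0.0655). All 4 hy5 libraries lay above all 4 WT libraries.
In WT the BA over Control difference of COSY was 0.025 ± 0.068 and did not pass the test (95% interval -0.12 to 0.17, adjusted p = 0.859). In hy5 the BA over Control difference was -0.21 ± 0.07, just short of the threshold in edgeR (adjusted p = 0.06) and past it in DESeq2 (adjusted p = 0.0243), in edgeR with RLE scaling (0.0493), in a fit of the 2 hy5 groups alone (0.0304), and without WT Control 1 (0.0473) or WT Control 2 (0.0379). The difference between the 2 responses, -0.23 ± 0.10, did not pass the test (adjusted p = 0.295). Between 96.5 and 98.8% of the COSY counts belonged to its first listed transcript in every library. AT1G28685 overlaps COSY by 1455 bases on the opposite strand and was not analysed here.

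S8H, the hydroxylase that makes fraxetin from scopoletin, had 3 and 4 estimated counts in hy5 BA and 0 and 3 in hy5 Control, against 0 and 0 in WT BA and 0 and 0 in WT Control. All libraries but 1 lay at or under 3 counts, the limit that a count of 0 allows, which corresponds to 0.0846 to 0.0987 CPM per library. No fold is given, and a difference was not detectable at this depth. CYP82C4, the cytochrome P450 that makes sideretin, had 2.62 and 2.70 CPM in hy5 BA and 1.17 and 2.37 CPM in hy5 Control, against 1.85 and 3.28 CPM in WT BA and 3.27 and 0.79 CPM in WT Control. The spread within WT Control was nearly as wide as that over all 8 libraries, with 112 and 25 estimated counts in its libraries. No comparison was called, the standard errors were 0.68 to 1.00, and the hy5 over WT difference without BA, -0.23 ± 0.74, had a 95% interval from -2.16 to 1.69. CYP82C4 shares 21.8% of its 31-base words with AT4G31950, so that the counting may have split reads between them.

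BGLU42, the glucosidase that frees coumarins from their glucosides, had the smallest spread over the 8 libraries of the 7 genes tested (0.08 log2 units around its mean, as root mean square). It had 23.8 and 23.2 CPM in hy5 BA and 24.8 and 21.9 CPM in hy5 Control, against 25.7 and 23.7 CPM in WT BA and 23.4 and 26.4 CPM in WT Control. No comparison was called, and the 95% interval of the hy5 over WT difference was -0.28 to 0.09 without BA and -0.26 to 0.12 with BA. Its second listed transcript held 60 to 67.4% of its counts and the first held 32.6 to 40%.

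PDR9, the exporter, had 155.6 and 161.5 CPM in hy5 BA against 139.7 and 131.4 CPM in WT BA. Both hy5 BA libraries lay above both WT BA libraries, and the difference of 0.23 ± 0.08 (1.17-fold) was just past the threshold (adjusted p = 0.0415). It was no longer called without WT BA 1 (adjusted p = 0.0695), WT BA 2 (0.226), hy5 Control 1 (0.0518), hy5 Control 2 (0.052), hy5 BA 1 (0.11) or hy5 BA 2 (0.203), nor with the replicate number as a block (0.0511). In an edgeR fit of transcripts the PDR9 difference with BA was 0.218 (adjusted p = 0.2). Without BA, PDR9 had 173.0 and 152.2 CPM in hy5 Control against 153.3 and 146.0 CPM in WT Control. These libraries overlapped, and the difference was 0.12 ± 0.08 (adjusted p = 0.281). The BA over Control differences of PDR9 were -0.04 ± 0.08 in hy5 and -0.14 ± 0.08 in WT, and neither passed the test.

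The regulators MYB72 and MYB10 were low and were called in no comparison. MYB72 had 0.676 and 0.618 CPM in hy5 BA and 0.826 and 0.993 CPM in hy5 Control, against 1.053 and 0.80 CPM in WT BA and 1.053 and 1.11 CPM in WT Control. Its hy5 over WT differences were -0.51 ± 0.29 with BA (adjusted p = 0.236) and -0.25 ± 0.27 without (adjusted p = 0.551), and neither passed the test. MYB72 is overlapped by AT1G56165 on the opposite strand over 829 bases, and that gene was not analysed here. MYB10 had 3.13 and 3.59 CPM in hy5 BA and 2.84 and 2.64 CPM in hy5 Control, against 2.51 and 3.31 CPM in WT BA and 2.22 and 2.10 CPM in WT Control. The 2 WT Control libraries were the lowest of the 8, as for F6'H1, but the differences of 0.34 ± 0.19 (hy5 over WT without BA, adjusted p = 0.199) and 0.43 ± 0.19 (BA over Control in WT, adjusted p = 0.167) did not pass the test. MYB10 has 2 listed transcripts, and the share of its counts in the first ran over libraries from 17 to 60%. MYB10 overlaps AT3G12810 on the opposite strand by 340 bases. AT3G12810 had 24.4 and 25.7 CPM in hy5 BA and 24.06 and 26.05 CPM in hy5 Control. It had 24.9 and 21.5 CPM in WT BA and 29.2 and 29.6 CPM in WT Control. Its part in the MYB10 values was not tested.

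**Figure D3:**
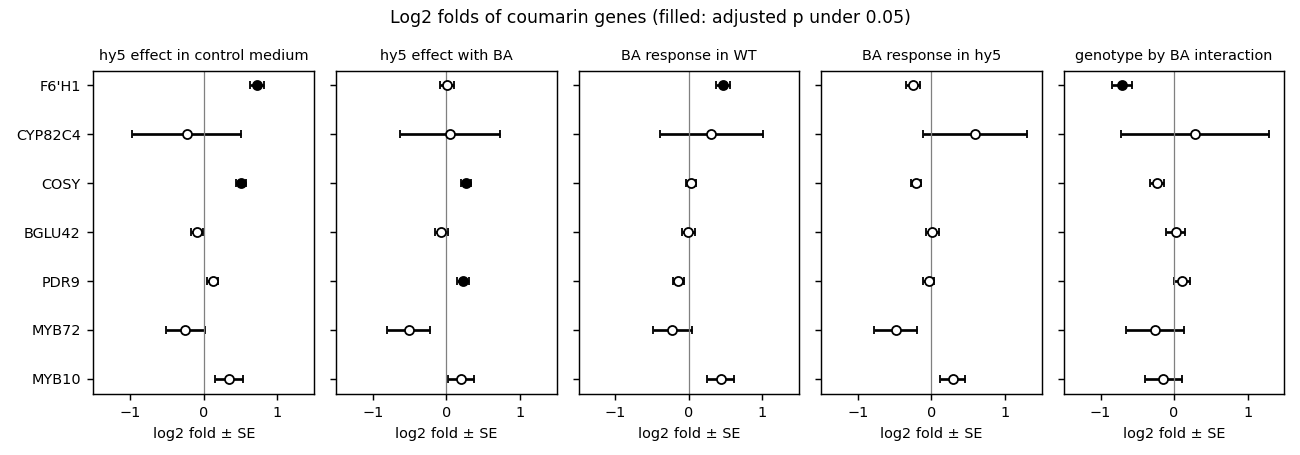
Log2 differences ± SE for the 7 coumarin genes tested, in the 5 comparisons; filled symbols mark an adjusted p under 0.05. F6'H1 and COSY were called higher in hy5 without BA, F6'H1 was called in the difference between BA responses at -0.71, and CYP82C4 had the widest error bars.

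Counted together, 2 of the 7 tested coumarin genes were higher and 0 lower in hy5 than in WT without BA, where 25.1% of all genes tested were called (13.7% higher and 11.4% lower). Their median difference was 0.12, against -0.001 over all genes tested. The libraries of hy5 Control and WT Control did not overlap for 4 of the 7, against 63.0% of all genes tested. With BA, 2 of 7 were higher and 0 lower in hy5, where 23.5% of all genes were called (11.0% higher and 12.4% lower), with a median of 0.05 against 0.01 over all genes. The libraries did not overlap for 3 of the 7, against 60.8% of all genes. The share called among the coumarin genes was near that of all genes. The counts over all genes themselves fell by over 1.5 times with 1 library left out, to 3685 of 5696 without hy5 Control 1 (no BA) and to 3366 of 5321 without hy5 BA 2 (with BA).

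BA raised 1 of the 7 and lowered 0 in WT, where 8.20% of all genes were called (3.88% higher and 4.33% lower); the libraries did not overlap for 4 of the 7, against 52.5% of all genes. The count over all genes in WT was 1861, and it fell to 932 without WT Control 1 and 841 without WT BA 2. In hy5, BA changed 0 of 7 by edgeR, where 11.1% of all genes were called (3.11% higher and 8.01% lower); the libraries did not overlap for 5 of the 7, against 55.9% of all genes. The count over all genes in hy5 was 2523, and leaving out hy5 Control 1, hy5 Control 2 or hy5 BA 2 brought it to 1355, 1191 or 1088, in that order. F6'H1 and COSY had a negative difference there at an unadjusted p under 0.05, which makes 2 genes, 0 had a positive one, and DESeq2 called 1 lower. Between the BA responses, 1 of the 7 was called lower, F6'H1, and 0 higher, where 0.485% of all genes were called (0.0485% higher and 0.436% lower), or 110 genes; leaving out 1 library gave 6 to 331. The medians of the 7 genes were 0.025 for BA in WT, -0.04 for BA in hy5 and -0.14 for the difference between them, against 0.01, 0.02 and -0.01 over all genes.

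A further list, here called other coumarin genes, held F6'H2, BGLU21, BGLU22, BGLU23 and the MYB factors MYB15, MYB58 and MYB63. Nothing here shows that each of these acts in coumarin metabolism. Of these 7 genes, 3 were higher, 0 lower and 4 not called in hy5 without BA. Over all genes, 13.7% were called higher and 11.4% lower. The list median was 0.12. BGLU22, a root beta-glucosidase that has been linked to scopolin cleavage, had 1186 and 1076 CPM in hy5 Control against 495.8 and 498.5 CPM in WT Control, a difference of 1.19 ± 0.08 (adjusted p = 1.41e-08). MYB15, an R2R3 MYB factor that has been linked to F6'H1 transcription and scopoletin accumulation, had 325.3 and 340.9 CPM in hy5 Control against 166.6 and 171.3 CPM in WT Control, a difference of 0.98 ± 0.08 (adjusted p = 8.7e-08). BGLU21, a paralog that shares 15% of its 31-base words with BGLU22, rose by 0.61 ± 0.09 (adjusted p = 7.81e-05). With BA, 3 were higher and 1 lower in hy5, where 11.0% of all genes were higher and 12.4% lower, with a median of 0.22. BGLU22 rose by 0.80 ± 0.08 and MYB15 by 0.74 ± 0.08, whereas BGLU23, an endoplasmic reticulum body glucosidase, had 3917 and 3595 CPM in hy5 BA against 5382 and 5652 CPM in WT BA and fell by 0.56 on the log2 scale (adjusted p = 0.000161). The third higher gene, MYB58, rose by 0.55 ± 0.19 (adjusted p = 0.0452) and kept its call in 1 of the 8 runs without 1 library, the run without WT BA 1. Apart from MYB58, these calls held in all 8 such runs. BGLU23 overlaps AT3G09250 and MYB58 overlaps AT1G16489, each on the opposite strand.

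Of 14 genes of the phenylpropanoid route that supplies feruloyl-CoA, 8 were higher and 1 lower in hy5 without BA (13.7% and 11.4% of all genes), with a median difference of 0.23; without hy5 Control 2 the higher count was 3, those of PAL3, PAL4 and 4CL5. PAL3 rose by 1.54 ± 0.19 (adjusted p = 1.09e-05) at levels of 3.40 and 4.22 CPM in hy5 Control against 1.29 and 1.33 CPM in WT Control. PAL4, a more abundant phenylalanine ammonia-lyase, had 122.1 and 124.9 CPM in hy5 Control against 72.9 and 55.6 CPM in WT Control and rose by 0.94 ± 0.11 (adjusted p = 5.43e-05). 4CL5, a 4-coumarate:CoA ligase, rose by 0.57 ± 0.07 (adjusted p = 6.79e-06); it overlaps AT3G21220 on the opposite strand. 4CL3, the ligase best known for flavonoid synthesis, was the one gene lower, with 3.70 and 3.69 CPM in hy5 Control against 14.4 and 14.4 CPM in WT Control, a difference of -1.96 ± 0.12 (adjusted p = 4.42e-09). With BA the median was 0.07, and 3 were higher (PAL3, PAL4 and 4CL5) and 2 lower (4CL3, -2.13 ± 0.12, and COMT1, -0.34 ± 0.08), where 11.0% of all genes were higher and 12.4% lower; the COMT1 call was lost without WT BA 2 (adjusted p = 0.066).

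Genes of iron regulation and uptake were called in both directions in hy5; over all genes, 13.7% were higher and 11.4% lower without BA, and 11.0% higher and 12.4% lower with BA. Of 15 tested iron-deficiency regulators, 0 were higher and 2 lower without BA (bHLH115, -0.25 ± 0.07, adjusted p = 0.0142, and BTS, -0.26 ± 0.07, adjusted p = 0.00733); DESeq2 also called 0 higher, and 1 was higher at an unadjusted p under 0.05. Without WT Control 1 or without hy5 Control 1 neither was called, and without hy5 Control 2 the bHLH115 call was lost; without WT Control 1 another regulator was called higher. The list's median was -0.05 without BA and -0.13 with BA. With BA, 0 were higher (1 at an unadjusted p under 0.05, and 0 in DESeq2) and 2 lower, bHLH34 (-0.42 ± 0.12, adjusted p = 0.0146) and BTS (-0.24 ± 0.07, adjusted p = 0.0155), and without WT BA 2 or without hy5 BA 2 neither was called; the bHLH34 call was also lost without hy5 BA 1. FIT, the central bHLH regulator of root iron uptake, had 11.3 and 13.1 CPM in hy5 BA and 13.4 and 11.6 CPM in hy5 Control, against 11.8 and 12.6 CPM in WT BA and 11.2 and 11.6 CPM in WT Control. Of 14 uptake and transport genes, 4 were higher and 2 lower in hy5 without BA, and 4 were higher and 1 lower with BA, with medians of 0.11 and 0.03. The lower count without BA was 1 without WT Control 1, hy5 Control 1 or hy5 Control 2; with BA the lower count was 4 without WT Control 1 or WT Control 2, and the higher count was 2 without hy5 BA 2. FRD3, the citrate exporter that loads iron into the xylem, rose by 0.81 ± 0.10 (adjusted p = 9.13e-06) without BA and by 0.89 ± 0.10 (adjusted p = 4.28e-06) with BA. IRT2 rose by 0.77 without BA (edgeR, adjusted p = 9.64e-05). With BA it rose by 0.29 (adjusted p = 0.042), a call that did not hold in every run without 1 library. ZIF1 rose by 0.38 without BA (adjusted p = 0.000753) and by 0.52 with BA (adjusted p = 5.19e-05). FRO3, a mitochondrial ferric reductase, had differences of -0.64 ± 0.08 (adjusted p = 1.78e-05) without BA and -0.63 ± 0.08 (adjusted p = 2.54e-05) with BA. FRO3 overlaps AT1G23010 and bHLH115 overlaps AT1G51080, each on the opposite strand. Of 4 ferritins, 1 was higher and 2 lower without BA, and 0 higher (1 at an unadjusted p under 0.05, and 0 in DESeq2) and 1 lower with BA, with medians of -0.22 and -0.03. Without BA the single higher call was lost without WT Control 1, hy5 Control 1 or hy5 Control 2, and 1 lower call was lost without any one of WT Control 2, hy5 Control 2 and the 4 BA libraries. The call that held in all 8 runs was that of FER2, the ferritin known mainly from seeds, which overlaps a neighbour on its own strand. FER2 had 3.83 and 3.601 CPM in hy5 Control against 7.64 and 8.85 CPM in WT Control and was lower in both media, with differences of -1.15 ± 0.14 without BA and -1.15 ± 0.14 with BA.

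**Figure D4:**
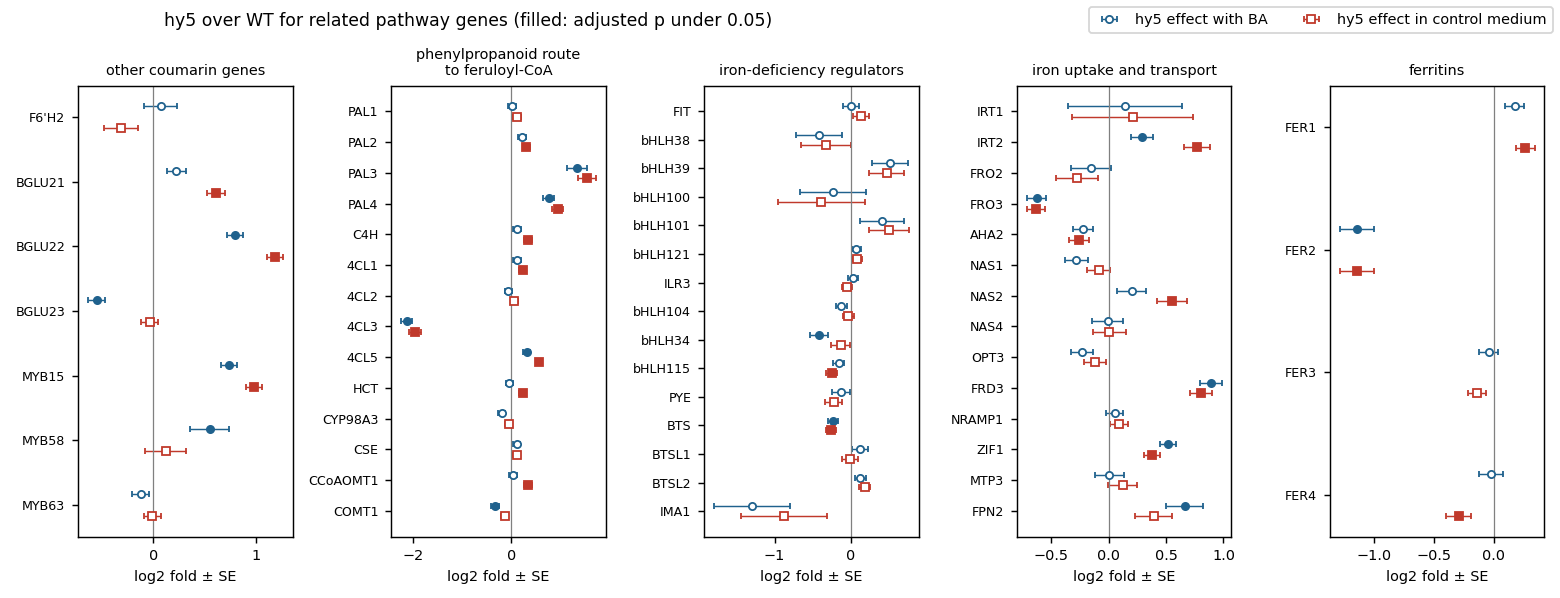
Log2 hy5 over WT differences (± SE) of the related pathway genes in 5 lists, with BA (circles) and in control medium (squares); filled symbols mark an adjusted p under 0.05. BGLU22, MYB15, PAL3, PAL4 and FRD3 were higher in hy5 in both media, and 4CL3, FRO3 and FER2 were lower in both.

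In the BA responses, 3.88% of all genes were called higher and 4.33% lower in WT, and 3.11% higher and 8.01% lower in hy5. In WT, 0 of 7 other coumarin genes and 0 of 14 phenylpropanoid genes were called in either direction, with 2 higher and 0 lower, and 2 higher and 2 lower, at an unadjusted p under 0.05, and DESeq2 called 2 other coumarin genes higher. The single called iron regulator, bHLH34, had 9.11 and 9.18 CPM in WT BA against 5.21 and 5.97 CPM in WT Control, a difference of 0.71 ± 0.12 (adjusted p = 0.00128). The single called uptake gene, IRT2, a root transporter related to IRT1, had 19.0 and 21.6 CPM in WT BA against 7.96 and 6.69 CPM in WT Control, a difference of 1.47 ± 0.11 (adjusted p = 2.7e-07), and the count was 4 without WT Control 1. In hy5, IRT2 had 25.5 and 24.1 CPM in hy5 BA against 11.6 and 13.5 CPM in hy5 Control, a difference of 0.99 ± 0.10 (adjusted p = 1.11e-05). MYB15 and BGLU22 were lower with BA in hy5, with differences of -0.39 ± 0.08 (adjusted p = 0.00285) and -0.33 ± 0.08 (adjusted p = 0.013), as were the phenylpropanoid genes CYP98A3 (-0.31 ± 0.07, adjusted p = 0.00741) and PAL2 (-0.26 ± 0.08, adjusted p = 0.0403). None of these 4 calls held without hy5 BA 2, those of MYB15, CYP98A3 and PAL2 were lost without hy5 Control 2, those of BGLU22 and PAL2 without hy5 Control 1, and that of PAL2 without hy5 BA 1. CYP98A3 overlaps AT2G40880 and AT2G09205 on the opposite strand. Of the 4 xylem markers, 3 were also called lower with BA in hy5 (list median -0.36). In WT, 0 were called lower by edgeR (2 at an unadjusted p under 0.05, median -0.14). The 1 xylem marker not called in hy5 stood at 0.057. In each genotype 1 of 5 endodermis and 1 of 2 phloem markers were called lower with BA. In WT 1 of 5 root hair markers was called higher. The part of these markers in these results was not tested. bHLH34 was called higher with BA in hy5 as well, at 0.43 ± 0.13 (adjusted p = 0.0368), but not without any one of the 4 hy5 libraries. The ferritins had 0 calls in either genotype, by edgeR and by DESeq2, with 2 higher in hy5 at an unadjusted p under 0.05 and 0 in WT. The list medians lay between -0.006 and 0.17 in WT and between -0.21 and 0.11 in hy5. No gene of the 5 lists was called in the difference between BA responses by edgeR, although 4 other coumarin genes, 3 phenylpropanoid genes and 1 uptake gene had a negative difference and 0 a positive one at an unadjusted p under 0.05, and DESeq2 called 3 other coumarin genes lower. Without WT Control 1 or without hy5 BA 1, edgeR called 1 of the other coumarin genes lower.

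Across the 8 libraries, each coumarin gene was also set against 18682 genes by the root mean square difference of centred log2 CPM, a description with no test. Among the 8 themselves, BGLU42 and PDR9 were the closest pair (0.15 log2 units), followed by COSY with PDR9 (0.16) and F6'H1 with COSY (0.18), while CYP82C4 and MYB72 were the farthest apart (0.81). The nearest genes to F6'H1 were the nitrilase gene NIT3 (0.10), AT1G77520 (0.10) and AT3G45080 (0.10), and the nearest to COSY was GSH1 (0.04), which encodes glutamate-cysteine ligase. The gene nearest to CYP82C4 was IRT1, the main root iron transporter, at 0.29, with AT1G24130 next at 0.39, against a spread of CYP82C4 itself of 0.66. IRT1 had 14.9 and 18.2 CPM in hy5 BA and 11.4 and 12.9 CPM in hy5 Control, against 11.2 and 18.8 CPM in WT BA and 15.0 and 5.84 CPM in WT Control. Both genes were thus lowest in WT Control 2 and high in WT BA 2, that is, they parted replicates of the same group. FRO2, the ferric reductase of the root surface, was lower in WT Control 2, at 5.74 CPM, than in WT Control 1, at 8.90 CPM. Its hy5 Control libraries were also low, with a mean of 6.06 ± 0.693 CPM (SD, n = 2). The 2 WT Control values of F6'H1 lay close together.

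**Figure D5:**
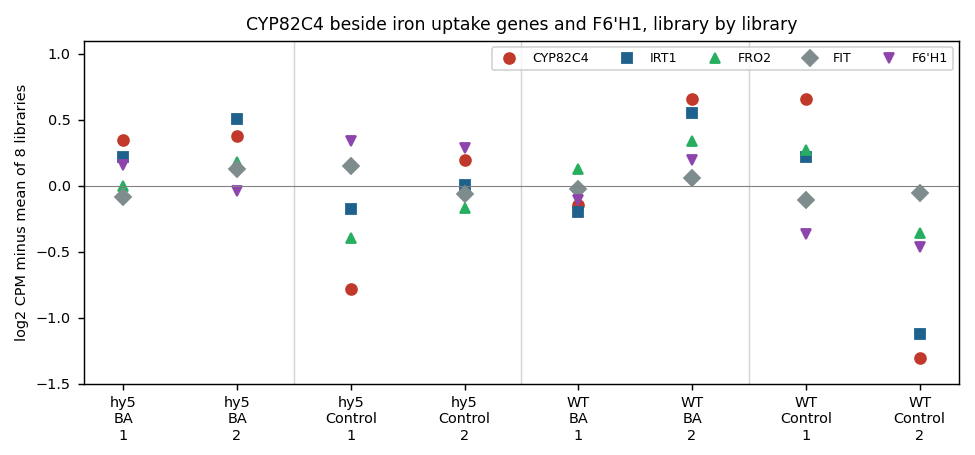
Log2 CPM minus the mean over the 8 libraries for CYP82C4, IRT1, FRO2, FIT and F6'H1, library by library in the order hy5 BA, hy5 Control, WT BA, WT Control. CYP82C4 and IRT1 lay farthest below their means in WT Control 2, at 0.79 and 5.84 CPM.

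Markers of root cell types differed between the genotypes beside these results. The 2 cortex markers summed to 16.3 and 19.4 CPM in hy5 BA and 15.95 and 16.05 CPM in hy5 Control, against 29.5 and 22.7 CPM in WT BA and 21.8 and 27.1 CPM in WT Control. The 5 root hair markers summed to 96.8 and 90.4 CPM in hy5 BA and 100.7 and 93.7 CPM in hy5 Control, against 117.8 and 139.2 CPM in WT BA and 125.9 and 114.3 CPM in WT Control. Both sums were lower in every hy5 library than in every WT library. The 4 xylem markers ran the other way, at 265.4 and 252.7 CPM in hy5 BA and 327.6 and 327.5 CPM in hy5 Control, against 195.6 and 212.3 CPM in WT BA and 245.4 and 195.8 CPM in WT Control. Without BA, 3 of 5 root hair markers were called lower and 1 higher in hy5, 1 of 2 cortex markers lower and 3 of 4 xylem markers higher; with BA the calls were 4 root hair markers lower, 1 cortex marker lower and 1 xylem marker higher. Endodermis markers summed to 511.7 and 477.5 CPM in hy5 BA and 524.3 and 525.1 CPM in hy5 Control, against 429.1 and 519.5 CPM in WT BA and 475.3 and 429.3 CPM in WT Control; 2 of 5 were called higher in hy5 without BA and 1 with BA. Of the 3 meristem and cap markers, 1 was called higher in hy5 without BA and 0 with BA (0 also at an unadjusted p under 0.05), and the non-hair epidermis and phloem markers had 0 calls by edgeR in either medium (1 non-hair marker was higher without BA at an unadjusted p under 0.05). No root marker was at 0 in any library. The part of cell composition in the F6'H1, COSY, BGLU22 and phenylpropanoid results was not tested.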

How the data were processed

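Poly(A) RNA of roots was sequenced in 8 libraries, grouped by the sample titles. The authors deposited 1 Salmon table per library, with estimated counts and TPM per transcript; the submitters' processing notes name TAIR10, and no version or options of Salmon are given in the sources used here. TPM was used as deposited, summed per gene. Estimated counts were summed per locus and rounded (27628 genes), and genes too low for a minimum count of 10 were removed (edgeR 4.0.16, filterByExpr), leaving 22682. Counts were scaled by TMM and fitted with 4 group means by edgeR's robust quasi-likelihood test in R 4.3.3, with Benjamini-Hochberg adjustment over all genes tested; SE is the fold divided by the root of F. The procedure was tested on simulated counts with the same dispersion for all genes. Of simulated 1.5-fold changes, 53.7 to 64.2% were recovered in comparisons of 2 groups. In the difference between BA responses, 34.3% of 1.5-fold and 76.1% of 2-fold changes were recovered, so small differences could be missed. CPM uses the library totals scaled by TMM. Coordinates and promoters are from RefSeq's TAIR10.1, where 99.59% of 48123 transcripts had the deposited lengths. Some transcripts had an estimated count that was not whole but lay within 0.001 of a whole number. They made up 1.34 to 1.53% of all listed transcripts in 6 libraries, against 21.6% in hy5 Control 1 and 23.5% in hy5 BA 2. Named genes were all 8 members, label checks, and up to 3 called genes a direction from 5 pathway lists in each comparison, plus the 3 nearest genes by pattern. COMT1, F6'H2, FIT, FRO2, IRT1 and MYB63 were also named. The members, lists, alternatives and named genes were chosen with earlier results of these data known.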

Additional observations from a re-analysis of the deposited data

Results flagged for a closer look

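The BA response of F6'H1 differed between the genotypes by the test of that difference itself: hy5 minus WT was -0.711 on the log2 scale (edgeR, adjusted p = 0.0419). BA over Control was -0.25 in hy5 and 0.46 in WT. F6'H1 was higher in 2 of 2 WT BA libraries than in both WT Control libraries, and lower in 2 of 2 hy5 BA libraries than in both hy5 Control libraries. Such a lack of overlap was common, at 52.5% of all genes tested for BA in WT and 55.9% for BA in hy5. The difference was called in 3 of the 8 runs that each left out 1 library, and with hy5 Control 1 and hy5 BA 2 both left out the F6'H1 adjusted p was 0.606. In an edgeR fit of transcripts the F6'H1 difference between responses was -0.715 and was not called (adjusted p = 0.492). Groups of 2 libraries allow no search for single samples that stand apart.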

How the results depend on the processing

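The higher level of F6'H1 and COSY in hy5 without BA was called under every alternative run, and no called value of the 7 tested genes changed sign. Values that were not called did so when 1 library was left out: CYP82C4 lay between -0.90 and 1.14 for hy5 over WT without BA and between -0.36 and 1.68 for BA in WT, and F6'H1 between -0.14 and 0.17 for hy5 over WT with BA. The counts of called genes moved as follows. With BA, the number higher in hy5 was 1 with the replicate number as a block, 0 without hy5 Control 1 and hy5 BA 2 together, 0 in a fit of transcripts and 0 to 2 when leaving out each library in turn. For BA in WT, the number higher was 0 in the fit of transcripts and 0 to 1 when leaving out each library. For BA in hy5, the number lower was 1 with RLE scaling, 1 with DESeq2, 2 with only the 2 groups compared and 0 to 1 when leaving out each library. The difference between BA responses was called in 0 genes without hy5 Control 1 and hy5 BA 2 together, 0 in the fit of transcripts and 0 to 1 when leaving out each library. Over all genes, 5696 were called for hy5 over WT without BA (3685 without hy5 Control 1), 5321 with BA (3366 without hy5 BA 2), 2523 for BA in hy5 (1088 to 1355 with hy5 Control 1, hy5 Control 2 or hy5 BA 2 left out) and 1861 for BA in WT (932 without WT Control 1 and 841 without WT BA 2). The difference between BA responses was called in 110, against 316 with DESeq2, 55 with library size only and 6 to 331 when leaving out each library. Counts for hy5 over WT in both media and for BA in hy5 were lower still without hy5 Control 1 and hy5 BA 2 together. For the pathway lists, DESeq2 gave 5 phenylpropanoid genes lower with BA in hy5 (2 by edgeR). It gave 2 other coumarin genes higher with BA in WT (0 by edgeR) and 3 lower in the difference between responses (0 by edgeR). The other list counts that moved by over 1.5 times without a library left out moved by 1 or 2 genes. The fit of transcripts adjusted p-values over transcripts in place of genes. F6'H1 and PDR9 each have 1 listed transcript with 100% of their counts. In that edgeR fit F6'H1 stood at 0.46 for BA in WT (adjusted p = 0.254) and -0.715 for the difference between responses (0.492). PDR9 stood at 0.218 for hy5 over WT with BA (0.2). The causes of these moves were not tested. Replicate numbers did not pair the libraries (correlations of deviations from -0.0683 to 0.0238); apart from the PDR9 call with BA, the block changed no call of the 8 genes. Scaling by library size only moved the median difference between BA responses over all genes by 0.106; F6'H1 then stood at -0.61 (adjusted p = 0.0446). Runs without 1 library leave its group with 1, assumed to vary like the others. S8H had at most 4 estimated counts in any library, and CYP82C4 had a wide spread between replicates.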
